A study of Homo sapiens with 6 samples.

Results

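The comparison described here is that of KGN cells given siOGT1, a small interfering RNA (siRNA) against OGT mRNA, with KGN cells given a negative control siRNA (siNC). KGN is an established human line from an ovarian granulosa cell tumour, so all groups are 1 tumour-derived line. Its genotype is labelled wild type, which means that no gene was edited. The siRNA was delivered by lipofection, and the cells were harvested at 48 h. Each group has 2 libraries, and a second siRNA against OGT (siOGT2), also with 2, was used as a reference where siOGT1 and siNC differed. So 4 of the 6 libraries make up the comparison, and the 10547 genes with a mean level of at least 1 FPKM (fragments scaled to transcript length and library size) over the 6 libraries were tested, of 20036 in the table. The sources used here do not say whether the libraries of a group are from separate cultures, so the p-values measure a spread between libraries that may be only technical.

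OGT encodes O-GlcNAc transferase, which puts single N-acetylglucosamine sugars on serine and threonine residues of proteins in the nucleus and cytosol, and OGA encodes the enzyme that removes them. The sugar donor, UDP-GlcNAc, is made by the hexosamine pathway. An siRNA is loaded into an Argonaute protein, which cuts an mRNA that pairs with the whole guide strand. A guide can also lower mRNAs that pair only with its seed, a short run near its 5′ end, mostly through sites in 3′ untranslated regions (UTRs), as a microRNA does. Double-stranded RNA brought in by transfection can be sensed by cells and can induce interferons, which switch on a large set of antiviral genes.

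The libraries held between 16756649 and 21416489 reads, worked out from the FPKM values. Granulosa markers were present but incomplete: FOXL2 lay between 5.32 and 6.25 FPKM, AMH between 6.57 and 6.96 and NR5A1 between 18.2 and 20.5 over the 6 libraries, while FSHR was listed at 0 in every library and CYP19A1 in 5 of 6. None of 13 leukocyte markers reached the level needed for testing. Fibroblast and epithelial markers were mixed. The collagen COL1A1 stood at 258 to 296 FPKM and the keratin KRT7 at 23.2 to 28.8 over the 6 libraries. But 5 of 10 fibroblast and theca markers and 6 of 9 epithelial markers were below the level needed for testing. Among these were PDGFRA, DCN, EPCAM and CDH1, at means of 0.52, 0.89, 0.71 and 0.04 FPKM.

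OGT mRNA was lower in both siOGT1 libraries. It stood at 22.4 and 23.4 FPKM in the siNC libraries, 13.8 and 12.9 with siOGT1, and 14.3 and 14.7 with siOGT2. The siOGT1 mean was 58.3% of the siNC mean, without overlap, and the log2 fold change was -0.74 (SE 0.04, limma adjusted p = 9.3e-06). Over the 10547 tested genes both siOGT1 libraries lay below both siNC libraries for 2244 and above them for 4131. Lack of overlap was thus common with 2 libraries a side. All fold changes below are differences in log2(FPKM + 1), which understate the change of genes of low level. The siOGT1 minus siOGT2 difference in OGT was -0.11 (SE 0.04), with an unadjusted limma p of 0.032 that did not pass after adjustment over all genes (adjusted p = 0.12). OGA stood at 64.1 and 64.8 FPKM in siNC and 60.9 and 59.8 under siOGT1, a log2 fold change of -0.09 that did not pass (adjusted p = 0.057). It passed in 3 of 18 alternatives, the filter at a mean of 5 FPKM, the trimmed mean scaling and voom on recovered reads (adjusted p = 0.0467, 0.0209 and 0.015).

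In all, 1857 genes passed an adjusted p of 0.05 between siOGT1 and siNC, 17.6% of those tested. Of these 1003 were higher (9.51%) and 854 lower (8.1%), and 3360 genes had an unadjusted p under 0.05. Changes were small on the whole, with a median size of 0.23 on the log2 scale among the genes that passed, but the larger ones were mostly falls. At least 1.5-fold differences were seen for 8 genes that rose and 127 that fell, and at least 2-fold differences for 1 and 18. The balance of rises and falls rested on the scaling: scaled by a trimmed mean of log ratios, the libraries gave 548 rises and 1008 falls, so that 35.2% of calls were rises, against 54% without it. Without siNC replicate 1, siNC replicate 2 or siOGT1 replicate 2, 945, 984 and 1197 genes passed, and without siOGT1 replicate 1, 590 were higher.

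**Figure D1:**
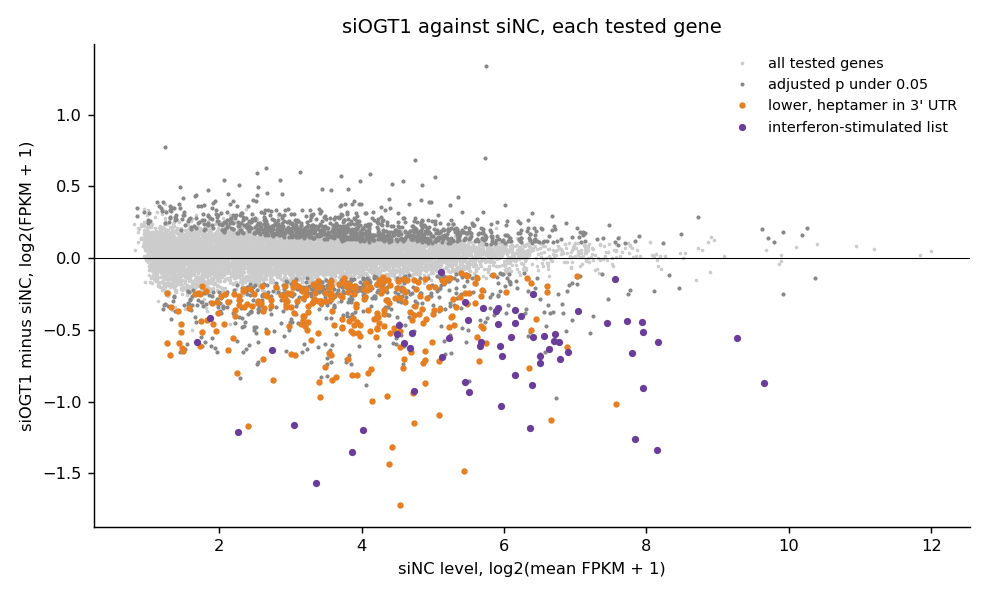
Each point is a tested gene, with its siNC level as log2(mean FPKM + 1) on the x axis and the siOGT1 minus siNC difference in log2(FPKM + 1) on the y axis. Dark grey points passed an adjusted p of 0.05, orange points are genes that fell and hold the 7-base run described below in their 3′ UTR, and purple points are the interferon-stimulated list. The falls reach -1.72, while 1 rise lies above 1.

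What the falls shared was looked for in their 3′ UTRs. All 7-base runs (heptamers) held by at least 200 tested genes of odd-numbered chromosomes were ranked, on the transcript strand of the longest GENCODE 29 3′ UTR of each gene, by the difference in median log2 fold change between genes that hold and genes that lack them. The ranking was made on those chromosomes and read again on the even-numbered ones. Of 11660 heptamers, GCTCTTA had the lowest value on the odd chromosomes (-0.080, 503 genes holding it) and on the even ones (-0.086, 473 genes). An earlier look at these data had already named it, so the values are a description without a test. The heptamer is shown in capitals, 5′ to 3′ on the transcript strand, within 30 bases of GRCh38 for the 8 genes holding it that fell furthest, 1 copy each.
TNFRSF21 (chr6:47232347-47232376, minus strand): tggattgtgagGCTCTTAacttcttaaaag
POLR1F (chr7:19697760-19697789, minus strand): aagtcttcacaGCTCTTAaaagccaggcca
SLC35B2 (chr6:44255380-44255409, minus strand): gccaatacgaaGCTCTTAagttcgtcagct
CNOT11 (chr2:101269884-101269913, plus strand): ttatgcacacaGCTCTTAactcctcatgag
ANGPTL1 (chr1:178851063-178851092, minus strand): tgtacttttcaGCTCTTAaaaatgtaaatg
TRIM14 (chr9:98085463-98085492, minus strand): aagtaataacaGCTCTTAatagtttataat
CAP1 (chr1:40071614-40071643, plus strand): tctacctttttGCTCTTAaaactgcttctc
VPS4B (chr18:63390430-63390459, minus strand): ttatagacagtGCTCTTAatagtttttaat
The base after the capitals is an a in all 8 windows shown, but a t after the second copy in SLC35B2 and VPS4B and a c after the third in CNOT11. OGT mRNA itself holds GCTCTTA once, in coding exon 18 of 22, at chrX:71563363-71563392 (plus strand), and not in its 3′ UTR. That window is shown because it is the match in the mRNA both siRNAs were made against.
OGT: gcagtaacacaGCTCTTAatatgcctgtta
No siRNA sequence was in the sources used here, so no heptamer was set against one, and a match of letters is neither a site shown to be bound nor a cause.

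Of 10491 genes with a 3′ UTR to search, 1017 held GCTCTTA, or 9.69%. Of those holding it 291 were lower with siOGT1, or 28.6%, against 559 of 9474 genes lacking it, or 5.9%. The medians were -0.04 for genes holding it and 0.04 for genes lacking it. With siOGT2 the same gene groups had medians of 0.04 and 0.05 against siNC.

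The share of genes that were lower grew with the number of copies. It was 26.9% of 903 genes with 1 copy, 40.8% of 103 genes with 2, and 54.5% of 11 genes with 3 or more. Genes with more copies also had longer 3′ UTRs, with medians of 3166, 4503 and 5452 bases. Within each range of 3′ UTR length, genes holding the heptamer were lower more often than those lacking it. The shares ran from 47.8% against 6.46% at up to 500 bases to 20.6% against 5.25% over 4000 bases. The heptamer was picked from these same fold changes, so the shares are a description, and a cause was not tested.

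**Figure D2:**
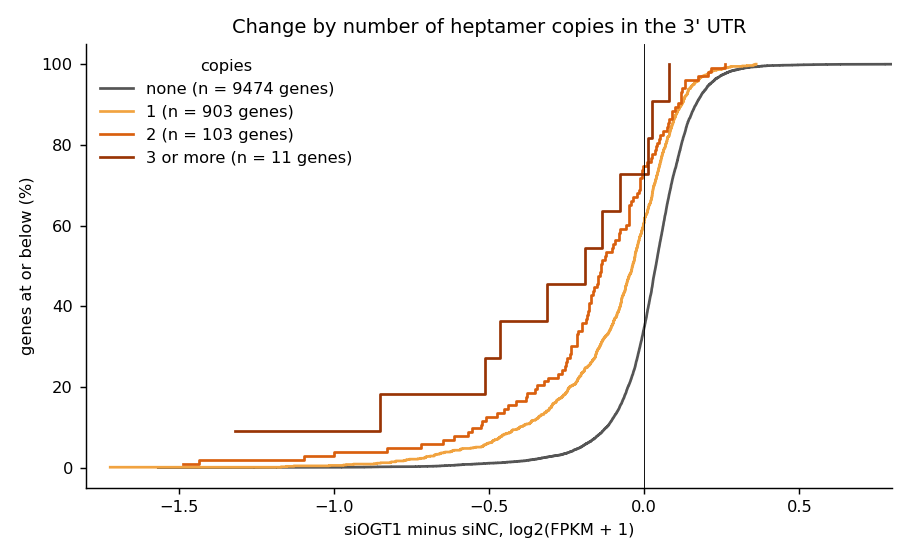
Cumulative share of genes (y axis, %) at or below each siOGT1 minus siNC difference in log2(FPKM + 1) (x axis), by the number of heptamer copies in the 3′ UTR. The curve for genes without a copy lies furthest right, and those for 1, 2 and 3 or more copies lie further left in that order, with only 11 genes in the last.

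The share differed with the base that follows. Among genes with 1 copy, 41.5% of 323 were lower where the next base was A, against 22.6% of 164 for C, 17.1% of 210 for G and 17.6% of 205 for T. Genes with the heptamer only in the coding sequence or 5′ UTR were lower in 75 of 541 cases, or 13.9%. Genes holding only its last 6 bases in the 3′ UTR were lower in 6.9% of 2681 cases and those with only its first 6 in 5.59% of 3005, beside 5.9% of all genes lacking the heptamer. Among the rises 49 of 1001 held the heptamer, or 4.9%, beside 9.69% of all genes searched.

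Among genes that hold the heptamer, TNFRSF21, which encodes the death receptor DR6 of the TNF receptor family, fell furthest. Its level was 21.7 and 22.6 FPKM in siNC, 6.06 and 6.0006 under siOGT1, and 20.7 and 20.6 under siOGT2. Both siOGT1 libraries were far below the other 4, at 27.2% of the siNC mean (log2 fold change -1.72, SE 0.04, adjusted p = 1.6e-08). The difference from siOGT2 was -1.62 (adjusted p = 1.9e-08), while siOGT2 against siNC gave -0.10 (adjusted p = 0.075).

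POLR1F, a subunit of RNA polymerase I, holds 2 copies and stood at 43.1 and 41.9 FPKM in siNC, 15.1 and 13.97 under siOGT1 and 43.8 and 44.7 under siOGT2. SLC35B2, the Golgi transporter of the sulfate donor PAPS, holds 2 and gave 19.7 and 20.01, then 6.97 and 6.46, then 21.02 and 20.3 FPKM in the same order. CNOT11, a subunit of the CCR4-NOT deadenylase that shortens poly(A) tails, holds 3 and gave 21.3 and 19.8, then 7.58 and 7.74, then 19.4 and 17.9 FPKM. In each of these both siOGT1 libraries lay below both siNC libraries, as in 2244 of all 10547 tested genes. The log2 fold changes of POLR1F, SLC35B2 and CNOT11 against siNC were -1.49, -1.43 and -1.32 (adjusted p = 4.8e-08, 1e-07 and 6.4e-07), and -1.54, -1.49 and -1.18 against siOGT2 (adjusted p = 4.2e-08, 8.8e-08 and 1.9e-06).

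A few highly expressed genes moved in opposite directions with the siRNAs. CAP1, which binds actin monomers and speeds filament turnover, was at 101 and 100.2 FPKM in siNC, 45.0 and 45.9 under siOGT1 and 107 and 109 under siOGT2. YWHAQ, the theta form of the 14-3-3 adaptors, was at 190.3 and 189 FPKM in siNC, 93.8 and 93.0 under siOGT1 and 216 and 219 under siOGT2. Both fell with siOGT1, by 1.13 and 1.02 on the log2 scale (adjusted p = 4e-08 and 4.7e-08), and were slightly higher than siNC with siOGT2, by 0.10 and 0.19 (adjusted p = 0.026 and 0.00075). The other 5 tested 14-3-3 genes did not pass.

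The 10 genes that were lowest against siOGT2, among those that passed in both contrasts, all hold the heptamer. It is held by 34.2% of genes that fell with siOGT1 and 9.69% of all genes searched. The heptamer and these 10 genes were both picked from the siOGT1 values, so this is a description. Besides the 6 above the 10 were TIMM10B (a mitochondrial import chaperone), SLC35D1 (a nucleotide sugar transporter), GTPBP4 (a GTPase of ribosome assembly) and VPS4B (an ATPase of membrane scission). Their siOGT1 minus siOGT2 differences were -1.001, -0.99, -0.96 and -0.95. Against siNC the changes were -0.83, -0.97, -0.87 and -1.10. Over all genes, 869 were lower with siOGT1 than with siOGT2, or 8.24%, out of 1750 that differed either way (16.6%). All 8 genes with the furthest falls among holders, and all 10 lowest against siOGT2, kept their call against siNC under the alternative settings in which they were tested.

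Not every gene with the heptamer followed siOGT1 alone. ANGPTL1, a secreted angiopoietin-like protein, was at 4.25 and 4.34 FPKM in siNC, 1.48 and 1.23 under siOGT1 and 1.67 and 1.76 under siOGT2. TRIM14, an adaptor in antiviral signalling, was at 26.1 and 25.3 FPKM in siNC, 11.98 and 10.1 under siOGT1 and 13.9 and 13.1 under siOGT2. Both were below siNC with either siRNA. TRIM14 had a difference between the siRNAs that passed (-0.27, adjusted p = 0.023), and ANGPTL1 one that did not (-0.21, adjusted p = 0.073).

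**Figure D3:**
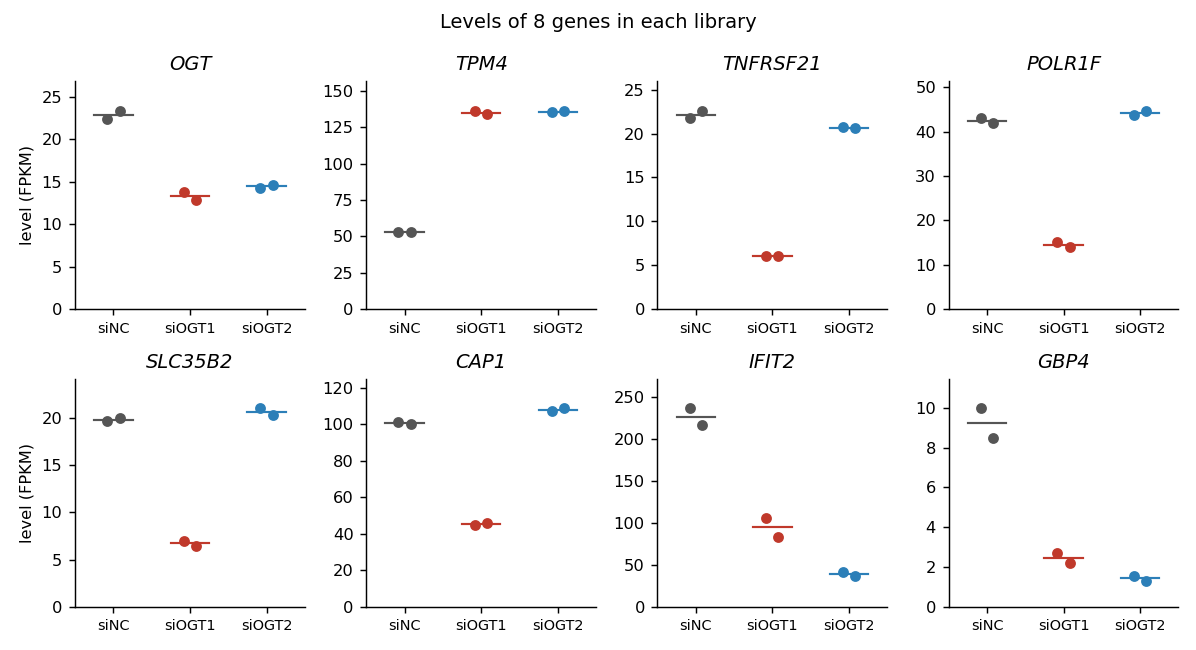
Level in FPKM (y axis, from 0) of 8 genes in each library, with points for the 2 libraries of siNC, siOGT1 and siOGT2 and a bar at their mean. OGT is lower and TPM4 higher with both siRNAs, TNFRSF21, POLR1F, SLC35B2 and CAP1 are low in the siOGT1 libraries, and IFIT2 and GBP4 are low with siOGT1 and lower with siOGT2.

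The genes that fell at least 1.5-fold were split by the heptamer. Of 124 such genes with a 3′ UTR to search, 52 held it, or 41.9%, beside 9.69% of all genes searched. Of these 52, 43 were also lower with siOGT1 than with siOGT2, and their median change with siOGT2 against siNC was -0.14. Of the 72 without it, 4 were lower with siOGT1 than with siOGT2, and their median with siOGT2 was -1.10. Over all genes searched, 31.2% of those holding the heptamer and 5.69% of those lacking it were lower with siOGT1 than with siOGT2. Both contrasts use the siOGT1 libraries, and the heptamer was picked from the same fold changes, so these counts are a description.

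**Figure D4:**
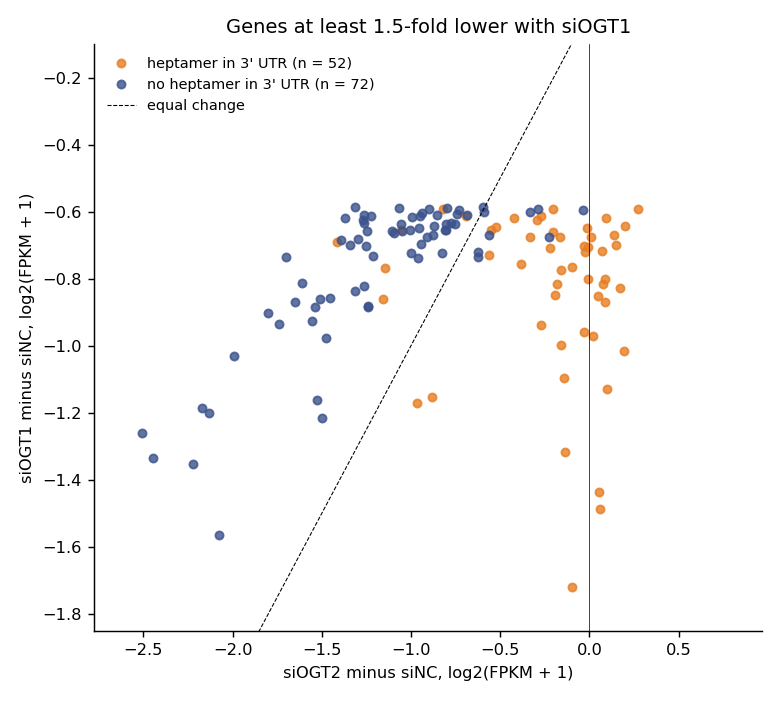
The genes that fell at least 1.5-fold with siOGT1, with the siOGT2 minus siNC difference on the x axis and the siOGT1 minus siNC difference on the y axis, both in log2(FPKM + 1). Orange points hold the heptamer in the 3′ UTR (n = 52) and gather near 0 on the x axis, and blue points (n = 72) lie mostly left of the dashed line of equal change, where siOGT2 was lower. The comparisons share the siNC libraries.

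Interferon-stimulated genes made up the other large group of falls. Of 63 in the list 61 were tested, 59 were lower with siOGT1 and the other 2 did not pass, beside 8.1% lower over all genes, and 58 or 59 were lower when 1 siNC or siOGT1 library was left out. Their median change was -0.59, beside 0.03 over all tested genes. In bulk RNA fewer responding cells and less RNA per cell cannot be told apart. Of the 61, 5 hold the heptamer, or 8.2%, beside 9.69% of all genes searched. The fall with siOGT1 was the smaller of the pair: 58 of the 61 were higher with siOGT1 than with siOGT2, beside 8.35% of all genes (881), and their median with siOGT2 was -1.07.

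The antiviral effectors were abundant in siNC. IFIT2, which binds viral RNA, was at 237 and 217 FPKM in siNC, 106 and 83.7 under siOGT1 and 41.0 and 37.3 under siOGT2. RSAD2, the antiviral enzyme viperin, was at 295 and 269 FPKM in siNC, 123 and 101 under siOGT1 and 56.8 and 45.7 under siOGT2. ISG15, a ubiquitin-like modifier, was at 858 and 752 FPKM in siNC, 456 and 423 under siOGT1 and 265 and 246 under siOGT2, and was named after its values were seen. In all 3 the siOGT1 mean lay between those of siNC and siOGT2.

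The changes were -1.26 for IFIT2, -1.33 for RSAD2 and -0.87 for ISG15 (adjusted p = 2.9e-05, 4.4e-05 and 2.6e-05). The differences from siOGT2 were 1.247, 1.11 and 0.78 (adjusted p = 4.5e-05, 0.00015 and 6.1e-05). The same order held for OASL, an oligoadenylate synthetase-like protein, at 85.9 and 76.5, then 37.6 and 32.7, then 18.99 and 15.7 FPKM. It also held for BATF2, an interferon-induced transcription factor, at 15.9 and 14.5, then 7.01 and 5.19, then 2.65 and 2.73 FPKM.

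GBP4, an interferon-induced guanylate-binding GTPase, had the largest fall in the list. It was at 9.97 and 8.48 FPKM in siNC, 2.70 and 2.21 under siOGT1 and 1.56 and 1.29 under siOGT2, a log2 fold change of -1.57 with siOGT1 (SE 0.09, adjusted p = 9.4e-06). IDO1, the tryptophan-degrading enzyme induced by interferon gamma, was at 4.18 and 3.48 FPKM in siNC and 1.03 and 1.12 under siOGT1 (-1.21, adjusted p = 1.6e-05). The TNF family ligands TNFSF10 (TRAIL) and TNFSF13B (BAFF) fell by 1.35 and 1.16 on the log2 scale (adjusted p = 3.7e-05 and 1.1e-05). TNFSF10 went from 14.3 and 12.8 FPKM in siNC to 5.24 and 4.18 with siOGT1, and TNFSF13B from 7.83 and 6.68 to 2.73 and 2.63.

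The 10 genes that were highest against siOGT2, among those that passed in both contrasts, were all interferon-induced: IFIT2, RSAD2, OASL, RTP4, CMPK2, BATF2, IFIT3, TNFSF10, USP18 and MX2. None of them holds the heptamer, which only 9.69% of all genes searched hold. RTP4 was the least steady, at 12.1 and 8.68 FPKM in siNC, 6.70 and 4.95 under siOGT1 and 3.01 and 1.99 under siOGT2. Its fall with siOGT1 was -0.74 (adjusted p = 0.018) and did not pass without siNC replicate 1, without siOGT1 replicate 2 or with no filter on low values.

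Promoters were searched for the core letters of the interferon-stimulated response element, a DNA motif bound by transcription factors of the interferon response. The motif was GAAANNGAAA on either strand, from 250 bases before to 50 after the start, in RefSeq promoters of GRCh38.p14, which matched 8693 tested genes. It was in 32 of the 49 interferon-stimulated genes matched, or 65.3%, in 3.06% of all matched tested genes and in 3.65% of all 27305 promoters in the RefSeq table. Of genes that fell at least 1.5-fold, 23 of the 54 matched without the heptamer held it (42.6%), and 4 of the 44 matched with the heptamer (9.09%). It was in 1.43% of 838 genes that rose. Windows from 3 promoters, chosen as examples after the values were seen, show the motif or its reverse complement in capitals.
TNFSF10 (chr3:172523598-172523627, minus strand): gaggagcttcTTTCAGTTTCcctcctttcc
IFIT3 (chr10:89327865-89327894, plus strand): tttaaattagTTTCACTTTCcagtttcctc
ISG15 (chr1:1013374-1013403, plus strand): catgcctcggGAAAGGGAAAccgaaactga
A match here is likewise a description, not a site shown to be bound.

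Of 24 tested interferon signalling genes 10 were lower and the other 14 did not pass, beside 8.1% lower over all genes. Their median was -0.15. IRF7, a transcription factor of the response, was at 24.7 and 21.8 FPKM in siNC, 15.5 and 14.3 under siOGT1 and 9.23 and 8.96 under siOGT2. STAT2, IRF1 and IRF7, all transcription factors of the response, fell by 0.33, 0.48 and 0.61 on the log2 scale (adjusted p = 0.0011, 0.00043 and 0.00014), and TLR3, an endosomal sensor of double-stranded RNA, by 0.51 (adjusted p = 0.0012). All 4 were higher with siOGT1 than with siOGT2.

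IFNAR1, a chain of the type I interferon receptor, was different. It holds 3 copies of the heptamer and stood at 5.82 and 5.76 FPKM in siNC, 2.60 and 2.94 under siOGT1 and 6.12 and 5.94 under siOGT2. It was lower with siOGT1 than with siNC (-0.85, adjusted p = 1.6e-05) and than with siOGT2 (-0.90, adjusted p = 1.9e-05). For IFNB1, which encodes interferon beta and was named after its values were seen, the levels were 2.60 and 2.49 FPKM in siNC and 2.40 and 1.22 under siOGT1, with the siOGT1 libraries far apart (log2 fold change -0.37, adjusted p = 0.17). With siOGT2 it was at 0.53 and 0.85 FPKM. The other receptor chain, IFNAR2, was below the level needed for testing, as were the interferon lambda genes IFNL1, IFNL2 and IFNL3.

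Of 20 tested MHC class I and antigen processing genes, which present peptides to T cells, 11 were lower and the other 9 did not pass, beside 8.1% lower over all genes, with a median of -0.20. TAP1, a chain of the peptide transporter, was at 58.7 and 55.5 FPKM in siNC and 44.8 and 41.6 under siOGT1 (-0.39, adjusted p = 0.00025). The immunoproteasome subunit PSMB10 fell by 0.47 and the class I molecule HLA-E by 0.25 on the log2 scale (adjusted p = 0.00085 and 0.00054). In the NF-kB and cytokine list 6 of 19 were lower and 1 higher, and 2 were lower without siNC replicate 2. TNFAIP3, a feedback inhibitor of NF-kB, fell by 0.40 (adjusted p = 0.00038) and the chemokine CCL5 by 0.55 (adjusted p = 0.00044), while TNFAIP2 rose by 0.32 (adjusted p = 0.0016).

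**Figure D5:**
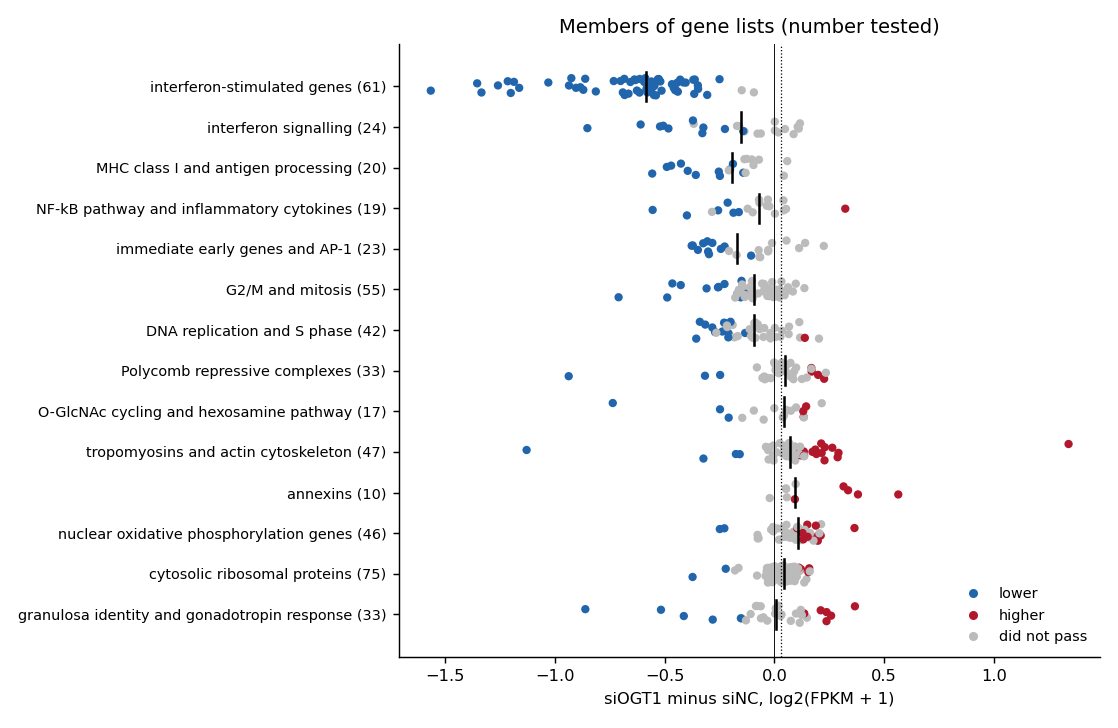
Members of 14 gene lists, each point a tested gene placed by its siOGT1 minus siNC difference in log2(FPKM + 1) on the x axis, with the number tested after each name. Blue members were lower, red higher and grey did not pass, the black bar is the list's median, and the dotted line is the median of all tested genes, 0.03. The interferon-stimulated list stands left at a median of -0.59, and the other medians lie between -0.20 and 0.11.

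Immediate early genes, which respond first to growth factors and stress, were lower in 11 of 23 cases and did not pass in the other 12, with a median of -0.17, and 7 were lower without siNC replicate 1. The shares over all genes were 8.1% lower and 9.51% higher. ATF3 was at 65.3 and 66.3 FPKM in siNC and 50.2 and 54.6 under siOGT1 (-0.32, adjusted p = 0.00077). MYC and JUN, both growth-related transcription factors, fell by 0.30 and 0.28 on the log2 scale (adjusted p = 0.00096 and 0.0012). Of 30 apoptosis regulators 8 were lower and 1 higher, and 5 were lower without siNC replicate 1. Among them were PMAIP1 (NOXA, -0.43, adjusted p = 1.6e-05) and MCL1, which opposes it (-0.32, adjusted p = 9.8e-05). APAF1, the scaffold of the apoptosome, holds the heptamer and went from 3.55 and 3.58 to 1.95 and 2.24 FPKM (-0.56, adjusted p = 0.00035), with 3.04 and 2.9997 under siOGT2.

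Mitotic genes held members of both kinds. Of 55 tested G2/M genes 12 were lower and 43 did not pass, with a median of -0.09, and leaving out 1 siNC or siOGT1 library gave between 6 (without siNC replicate 2) and 17 lower. The share lower was 8.1% over all genes and 28.6% over all genes holding the heptamer. Of the 7 G2/M genes that hold it 6 were lower. TOP2A, the topoisomerase that untangles chromosomes, was at 28.4 and 29.3 FPKM in siNC, 17.0 and 17.5 under siOGT1 and 23.5 and 25.8 under siOGT2. It holds 1 copy and fell by 0.71 on the log2 scale with siOGT1 (adjusted p = 1.6e-05) and was lower than with siOGT2 by -0.49 (adjusted p = 0.00015).

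TPX2, CDC25B and ANLN, which act in spindle assembly, mitotic entry and cytokinesis, also hold 1 copy each. They fell by 0.49, 0.46 and 0.43 (adjusted p = 5.9e-05, 0.00054 and 0.0001) and each was lower than with siOGT2. The kinases AURKA and AURKB lack the heptamer and fell by 0.31 and 0.26 (adjusted p = 0.003 and 0.0044), AURKB being higher with siOGT1 than with siOGT2 (0.23, adjusted p = 0.0093). In the S phase list 12 of 42 were lower and 1 higher, beside 8.1% and 9.51% over all genes, but 3 were lower without siNC replicate 1. MCM4, a subunit of the replicative helicase, was at 4.98 and 4.70 FPKM in siNC, 3.58 and 3.55 under siOGT1 and 4.70 and 5.06 under siOGT2 (-0.36 against siNC, adjusted p = 0.0022).

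Most chromatin genes tied to OGT did not pass the test, as was so over all tested genes, of which 17.6% passed. Of 34 tested OGT partners 4 were higher and 1 lower, beside 9.51% and 8.1% over all genes, and 1 was higher without siNC replicate 1. Of the 7 partners that hold the heptamer 1 was lower. It was ASH2L, a core subunit of the histone H3 lysine methyltransferases, which was at 13.7 and 13.7 FPKM in siNC, 9.004 and 9.51 under siOGT1 and 14.8 and 14.1 under siOGT2 (-0.52, adjusted p = 5.9e-05). HDAC1, a histone deacetylase, rose by 0.27 (adjusted p = 0.00097). Of 33 tested Polycomb genes, which act in gene silencing, 4 were higher and 3 lower, and 1 was higher without siNC replicate 1.

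SUZ12, a core subunit of Polycomb repressive complex PRC2, had the largest change of that list. It was at 25.1 and 25.5 FPKM in siNC, 12.3 and 13.1 under siOGT1 and 21.4 and 20.2 under siOGT2, so that the siOGT1 libraries were at 50.4% of the siNC mean (-0.94, adjusted p = 2.8e-06) and below siOGT2 (-0.67, adjusted p = 2.2e-05). BCOR, of a variant PRC1 complex, fell by 0.32 (adjusted p = 0.0011) and did not move with siOGT2 beyond its error (-0.01, adjusted p = 0.92). Both hold 1 copy of the heptamer. PCGF5, another PRC1 subunit without it, fell by 0.25 (adjusted p = 0.0014) and was at -0.40 with siOGT2.

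In the O-GlcNAc and hexosamine pathway 3 of 17 tested genes were higher and 3 lower, and in the limma fit without siNC replicate 1 there were 0 higher. The shares over all genes were 9.51% higher and 8.1% lower. Apart from OGT the lower ones in the pathway were HK2, a hexokinase (-0.21, adjusted p = 0.004), and PGM3, the phosphoglucomutase of UDP-GlcNAc synthesis (-0.25, adjusted p = 0.012). PGM3 holds 2 copies of the heptamer and was lower than with siOGT2 (-0.35, adjusted p = 0.0023). Its call against siNC was lost without siNC replicate 1, siNC replicate 2 or siOGT1 replicate 2. GFPT1, the rate-limiting enzyme of the pathway, was at 0.14 (adjusted p = 0.029), a call lost without any 1 of the siNC or siOGT1 libraries. The RNA interference list had 4 of 16 lower, beside 8.1% over all genes, and the other 12 did not pass. AGO2, the slicing Argonaute, and TNRC6C, its silencing partner, hold the heptamer and fell by 0.40 and 0.46 (adjusted p = 0.00074 and 0.002). MOV10 and ADAR lack it and fell by 0.64 and 0.25 (adjusted p = 5.8e-05 and 0.0019).

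The largest rise was in TPM4, a tropomyosin that lies along actin filaments. It was at 52.8 and 52.7 FPKM in siNC, 136 and 134 under siOGT1 and 135 and 136 under siOGT2, 2.56-fold higher with siOGT1 than with siNC (log2 fold change 1.34, SE 0.03, adjusted p = 1.6e-08). The siRNAs did not differ in TPM4 beyond their error (adjusted p = 0.93). Of the other tropomyosins, named after their values were seen, TPM1 rose by 0.13 (adjusted p = 0.022), while TPM2 at -0.01 (adjusted p = 0.97) and TPM3 at 0.04 (adjusted p = 0.51) did not pass.

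The next rises were smaller. GANAB, the catalytic subunit of glucosidase II in the endoplasmic reticulum, was at 53.02 and 51.2 FPKM in siNC, 87.1 and 82.95 under siOGT1 and 87.8 and 92.4 under siOGT2 (0.70, adjusted p = 6.2e-06). PRDX4, a peroxiredoxin of the same compartment, was at 25.8 and 25.9, then 41.6 and 42.6, then 48.5 and 47.0 FPKM (0.68, adjusted p = 3e-06). B4GALT1, a Golgi galactosyltransferase, rose from 16.6 and 16.0 to 25.9 and 24.2 FPKM (0.59, adjusted p = 2e-05) and was at 25.8 in both siOGT2 libraries. None of the 15 largest rises holds the heptamer, but only 9.69% of all genes searched do.

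Some rises were larger with siOGT1 than with siOGT2. ZNF267, a zinc finger protein, was at 1.48 and 1.2501 FPKM in siNC, 3.06 and 3.02 under siOGT1 and 1.93 and 1.88 under siOGT2 (0.77 against siNC, adjusted p = 7.8e-05, and 0.47 against siOGT2, adjusted p = 0.0016). G3BP2, a stress granule protein, was at 14.6 and 15.01, then 21.8 and 22.1, then 18.3 and 18.4 FPKM (0.54, adjusted p = 1.5e-05, and 0.25 against siOGT2, adjusted p = 0.0015). For each gene both siOGT1 libraries were above both siNC libraries, as for 4131 of all 10547 tested genes. The remaining genes among the 15 largest rises were ZNF616, HABP4, GPATCH11, PWWP2A, ANXA7, SMIM10, FAM210B, THOC7 and STX12, between 0.52 and 0.63. Of the 15, 14 kept their call under every alternative they were tested in, and GPATCH11 lost it with no filter on low values (adjusted p = 0.065).

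Actin genes were higher in 15 of 47 cases and lower in 4, beside 9.51% and 8.1% over all genes, with a median of 0.07. The count of higher genes was 9 under the trimmed mean scaling and between 6 and 12 with 1 siNC or siOGT1 library left out, the lowest without siNC replicate 2. ACTB was at 432 and 409 FPKM in siNC and 518 and 509 under siOGT1 (0.29, adjusted p = 0.00096). The myosin chains MYL9 and MYH9 rose by 0.29 and 0.23 (adjusted p = 0.00048 and 0.00055). Against these, VCL (vinculin), which holds the heptamer like CAP1, was at 43.6 and 43.4 FPKM in siNC, 35.0 and 34.1 under siOGT1 and 45.3 and 44.1 under siOGT2 (-0.32, adjusted p = 0.00015). Of 10 tested annexins, which bind membranes with calcium, 5 were higher and the other 5 did not pass, the higher ones including ANXA7 (0.56), ANXA4 (0.38) and ANXA6 (0.32), and 3 were higher without siNC replicate 1.

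Few ribosomal protein genes passed against siNC. Of 75 tested cytosolic ribosomal protein genes 4 were higher and 2 lower, beside 9.51% and 8.1% over all genes. Their median was 0.04, close to that of all genes. The count of higher genes rested on the scaling, with 9 under quantile normalization and 0 under the trimmed mean scaling. These ribosomal protein genes differed more between the siRNAs, with 48 of 75 lower with siOGT1 than with siOGT2, beside 8.24% over all genes. Their median against siNC was 0.23 with siOGT2, beside the 0.04 with siOGT1. The lower ones against siNC were RPL27 and RPSA. RPSA, which holds the heptamer, was at 51.3 and 49.8 FPKM in siNC, 42.2 and 44.2 under siOGT1 and 57.1 and 60.2 under siOGT2. RPL27, which lacks it in its 3′ UTR, was at 104 and 99.7, then 76.1 and 81.0, then 106 and 112 FPKM. Nuclear genes of oxidative phosphorylation were higher in 12 of 46 cases and lower in 2, beside 9.51% and 8.1% over all genes, but 3 were higher under the trimmed mean scaling and 0 in the limma fit without siNC replicate 2.

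Of 33 tested granulosa genes 6 were higher and 5 lower, beside 9.51% and 8.1% over all genes, and 3 were higher without siNC replicate 2. EGFR, the receptor of the epidermal growth factor family, holds the heptamer and was at 17.5 and 18.2 FPKM in siNC, 12.7 and 13.6 under siOGT1 and 18.4 and 18.01 under siOGT2 (-0.41, adjusted p = 0.0002). BTC, a ligand of that receptor, holds it too and was at 10.5 and 8.71, then 4.96 and 4.68, then 4.28 and 3.26 FPKM (-0.86, adjusted p = 0.0005). PGR (progesterone receptor) and BMPR2 (a receptor of bone morphogenetic proteins), also with the heptamer, fell by 0.52 and 0.28 (adjusted p = 0.001 and 0.00061). GJA1, which forms the gap junctions between granulosa cells, and IGFBP4 rose by 0.21 and 0.24 (adjusted p = 0.0037 and 0.00095).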

How the data were processed

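RNA of KGN cells was sequenced, in 2 libraries of each siRNA group. Per the submitters' processing notes, cutadapt 1.15, HISAT2 (no version stated) and GRCh38 were used, and the sources used here name no counter or annotation and no strand setting. The authors deposited FPKM values in 1 table of 20036 Ensembl genes. Values were used as deposited, as log2(FPKM + 1), for genes with a mean of at least 1 FPKM. All 6 libraries entered 1 limma 3.58.1 fit (R 4.3.3, intensity trend, 3 residual and 6.31 prior degrees of freedom), with two-sided tests and Benjamini-Hochberg adjustment over the 10547 genes, and it was tested on simulated data. Group means and SDs rest on n = 2 libraries a group. The SEs are those of the limma fit, from a spread estimated over all 6 libraries and moderated across genes. Recovered reads, whole for 100.0% of tested genes within 0.01 reads, gave the depths and 1 alternative, limma's voom. Reads shared with pseudogenes, as for ribosomal protein genes, HSPD1 or ACTB, may have been split in ways not known here.

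Genes were named by a rule: OGT and OGA, the 15 largest rises and falls, up to 6 members of each list with the smallest p, the 10 lowest and highest against siOGT2, and the 8 furthest falls with the heptamer. Others are said to be chosen after their values were seen. A gene that this rule names is not reported here. The comparison, the lists and the heptamer search were chosen with earlier results of these data known, and the promoter search after the values were seen. Alternatives covered the pseudocount, low-value filter, scaling, variance model, replicate block, a fit without the siOGT2 libraries, the UTR used per gene and each library left out.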

Additional observations from a re-analysis of the deposited data

Results flagged for a closer look

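For 9 of the named genes the siRNAs moved the level in opposite directions: each was lower than siNC with siOGT1 and higher than siNC with siOGT2, both past the threshold. The difference between the siRNAs was tested in the same limma fit. Both contrasts with siNC share the siNC libraries. CAP1, YWHAQ and TIMM10B, described above, had siOGT1 minus siOGT2 differences of -1.227, -1.210 and -1.001. CPT1A, the enzyme that admits long-chain fatty acids to mitochondria, was at 23.5 and 23.0 FPKM in siNC, 14.2 and 13.6 under siOGT1 and 24.8 and 26.8 under siOGT2, a difference of -0.848. MGAT5, a Golgi enzyme that branches N-glycans, was at 4.78 and 5.23, then 3.97 and 3.68, then 6.96 and 6.54 FPKM in that order, a difference of -0.685, and its call against siNC was lost without siNC replicate 2 (adjusted p = 0.056). RPSA gave -0.431 and CANX, an endoplasmic reticulum chaperone, -0.233. The call of CANX against siNC was lost under quantile normalization, with no variance trend and without siNC replicate 2 or siOGT1 replicate 2 (largest adjusted p = 0.113). These 7 hold the heptamer in the 3′ UTR, beside 34.2% of genes that fell with siOGT1 and 9.69% of all genes searched. The mitochondrial chaperone HSPD1 and the ATP synthase subunit ATP5F1B lack it there and gave -0.492 and -0.363. The heptamer and the 9 genes were both picked from the siOGT1 values, so the 7 are a description.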

How the results depend on the processing

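OGT fell in every alternative, between -0.78 and -0.60 on the log2 scale. Some alternatives could not move a fold change between siOGT1 and siNC, only its error. They were no variance trend, robust variance, replicate block and leaving out 1 or both siOGT2 libraries. With no filter on low values 17114 genes were tested and 1138 passed against siNC, 498 of them higher, and 1017 differed from siOGT2, 524 higher and 493 lower. Trimmed mean scaling gave 548 higher genes and voom on recovered reads 1507, of 2546 in all. Leaving out each library gave 945 to 1737 genes against siNC (407 to 912 higher, 538 to 825 lower) and 816 to 1533 against siOGT2 (417 to 783 higher, 399 to 750 lower), from fewer samples. The heptamer's median difference was negative in all 19 alternatives, from -0.1171 to -0.0300. Those that could not move it repeated the main -0.0804 and -0.0863 (odd and even chromosomes) and add nothing. Apart from the shortest 3′ UTR and the filter at 5 FPKM, the alternatives were chosen for it after the data were seen. The difference was -0.0525 and -0.0505 with a pseudocount of 5 and -0.0300 and -0.0412 with no filter.

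With the replicate number as a block, 1773 genes passed against siNC (945 higher, 828 lower) and 1674 against siOGT2. Same-numbered libraries deviated together little (r = -0.022, -0.026 and 0.049). The sources used here do not say whether they share more than a number, and these r values cannot show it.

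Of 276 named genes 157 kept their side of the threshold in every alternative. Direction turned only in genes that did not pass: under quantile normalization MT-CYB was at -0.0307 and YWHAG at 0.0508, and with 1 library left out H2BC4 lay between -0.1909 and 0.0036, YWHAG between -0.0108 and 0.0085, ANXA11 between -0.0089 and 0.1162, ANXA3 between -0.0519 and 0.0097 and PAX8 between -0.0293 and 0.1010. Counts within lists moved by over 1.5 times in 291 of 1548 cases, the cause of which was not tested.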

Other observations

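Some genes were lower with siOGT1 than with siNC and siOGT2 yet hold no GCTCTTA in the 3′ UTR searched. ACADM, which starts the oxidation of medium-chain fatty acids, was at 8.22 and 8.07 FPKM in siNC, 5.18 and 4.93 under siOGT1 and 7.90 and 7.95 under siOGT2 (-0.60 against siNC, adjusted p = 3.7e-05). VHL, which marks hypoxia-inducible factors for destruction, was at 6.70 and 6.40, then 3.87 and 4.54, then 6.41 and 6.61 FPKM (-0.54, adjusted p = 0.00049). The nuclear export receptor CSE1L and SEPTIN2, a septin of cytokinesis, both chosen after their values were seen, were at -0.43 and -0.42 against siNC and -0.58 and -0.54 against siOGT2.

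AKR1C3, which reduces steroids, rose and was at 25.9 in both siNC libraries and 32.6 and 30.7 FPKM under siOGT1 (0.28, adjusted p = 0.0012). Of 18 tested steroid synthesis genes 3 were higher (1 without siNC replicate 2) and the other 15 did not pass, beside 9.51% higher over all genes. Of 32 tested p53 genes 8 were higher (5 without siNC replicate 1) and 4 lower, beside 9.51% and 8.1% over all genes. In the latter list XPC, a DNA damage sensor, and ZMAT3, an RNA-binding p53 target, rose by 0.28 and 0.25 (adjusted p = 0.00043 and 0.0013). TCF3, an E protein, rose from 3.70 and 4.01 to 6.08 and 5.76 FPKM (0.51, adjusted p = 0.00022), while 3 of its ID inhibitors were lower, ID1 by -0.48, ID2 and ID3 by less, and each of these 3 calls was lost without siNC replicate 1. MT2A, a metallothionein, fell from 95.1 and 84.4 to 57.4 and 54.6 FPKM (-0.67, adjusted p = 9.8e-05) and was at 57.5 and 63.5 under siOGT2.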
